A study of Mus musculus with 6 samples.

Results

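The description concerns genes that stood apart on day 1 of an osteogenic course, that is, genes whose level on day 1 lay above or below both neighbouring samples, days 0 and 3. A gene was called a peak when its normalized log2 level on day 1 was at least 1 (2-fold) above both days and its probe was detected on day 1. It was called a dip when the level was at least 1 below both days and the probe was detected on days 0 and 3. A probe counts as detected when its deposited detection p-value, which sets the signal against the negative controls of the same array, was under 0.01. The rule found 219 genes, 114 peaks and 105 dips, among 9751 genes with a named probe, of which 8881 were detected on at least 1 array. Against day 0 alone, 323 of 8133 genes (3.97%) were at least 2-fold higher on day 1 and 297 (3.65%) lower. Against day 3 alone, 467 of 8305 (5.62%) were higher on day 1 and 720 (8.67%) lower, and between days 0 and 3 themselves 615 of 8323 (7.39%) were higher on day 3 and 368 (4.42%) lower. The peaks were 1.45% of the 7843 genes that could have peaked and the dips 1.38% of the 7616 that could have dipped. Levels on days 0, 1 and 3 chose the members, so these levels are given as a description and no test was made on them.

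The cells were mesenchymal stem cells that the labels take from dorsal and inguinal fat of C57BL/6 mice, cultured in serum-containing growth medium, plated overnight and then given an osteogenic medium. That medium held ascorbic acid, β-glycerophosphate, DMSO, a larger share of serum, and dexamethasone, a synthetic glucocorticoid. Total RNA of days 0, 1, 3, 6, 10 and 14 was hybridised to 6 Illumina bead arrays, 1 for each day. Day 0 is the sample before the medium acted, and every later sample had the medium, so medium, serum, dexamethasone, time after plating and the array itself cannot be told apart. The sources used here do not give the age or sex of the animals, the number of animals behind a sample or any pooling. In a bulk culture fewer cells of a type and less RNA per cell cannot be told apart either.

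Cells that enter the division cycle switch on genes in waves. The G1/S genes, many of them bound by E2F factors, supply cyclin E, the replication licence and deoxynucleotides, and the G2/M genes, many of them bound by the MuvB and B-MYB complexes and by FOXM1 through CHR and CCAAT elements, supply the spindle, the kinetochore and the machinery of cytokinesis. The circadian clock runs beside it as a feedback loop in which CLOCK and BMAL1 act on E-boxes of the Per genes and of the PAR-bZIP factors Dbp and Tef. Glucocorticoids and serum are both known to reset this clock in cultured cells. Osterix, the product of Sp7, is a transcription factor needed for bone-forming cells.

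Promoters of the members that carry the result were read from RefSeq (GRCm38.p6), as windows from 250 bases before to 50 after the start, and 170 of the 219 members had at least 1 window. Motifs were searched on both strands: the E2F core, the CHR with the CCAAT box, the E-box, a FOXO core and a glucocorticoid half-site. The E2F core was any of the words TTTCCCG (found on the other strand of Cdc6), TTTCGCG (found in Mcm5), TTTGCCG (found in none of the windows shown) and, finally, TTTGGCG (found in Mcm10). The CHR was written TTTGAA and the CCAAT box CCAAT. The E-box was CACGTG, the word that CLOCK and BMAL1 bind. The FOXO core was GTAAACA and the glucocorticoid half-site, in turn, was AGAACA. The replication peaks Cdc6 (chr11:98907901-98908200, plus strand), Mcm10 (chr2:5012742-5013041, minus strand) and Mcm5 (chr8:75109259-75109558, plus strand) are shown because they are the windows of that list that hold an E2F core, which is in capitals. In Mcm5, 2 matches on opposite strands overlap.
Cdc6: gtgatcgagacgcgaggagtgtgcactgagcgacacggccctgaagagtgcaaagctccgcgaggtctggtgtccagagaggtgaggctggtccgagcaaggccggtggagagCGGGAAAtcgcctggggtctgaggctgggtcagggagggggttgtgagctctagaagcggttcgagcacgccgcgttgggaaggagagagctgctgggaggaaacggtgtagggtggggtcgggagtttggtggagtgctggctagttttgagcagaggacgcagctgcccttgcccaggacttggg
Mcm10: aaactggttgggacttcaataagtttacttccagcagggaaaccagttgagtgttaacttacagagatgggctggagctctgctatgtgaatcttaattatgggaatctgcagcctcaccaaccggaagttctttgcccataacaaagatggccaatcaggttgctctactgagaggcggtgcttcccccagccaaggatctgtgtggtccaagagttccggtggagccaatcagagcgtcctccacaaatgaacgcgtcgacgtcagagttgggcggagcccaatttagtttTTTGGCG
Mcm5: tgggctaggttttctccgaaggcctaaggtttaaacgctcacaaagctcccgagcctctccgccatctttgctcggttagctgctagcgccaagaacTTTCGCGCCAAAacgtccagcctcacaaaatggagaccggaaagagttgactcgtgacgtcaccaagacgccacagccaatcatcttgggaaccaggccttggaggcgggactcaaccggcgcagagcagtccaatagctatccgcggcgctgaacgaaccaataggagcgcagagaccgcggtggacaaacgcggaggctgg
The mitosis peaks Kif4 (chrX:100625815-100626114, plus strand) and Cenpa (chr5:30666636-30666935, plus strand) are shown because they hold both a CHR and a CCAAT box. Both motifs, on either strand, are in capitals.
Kif4: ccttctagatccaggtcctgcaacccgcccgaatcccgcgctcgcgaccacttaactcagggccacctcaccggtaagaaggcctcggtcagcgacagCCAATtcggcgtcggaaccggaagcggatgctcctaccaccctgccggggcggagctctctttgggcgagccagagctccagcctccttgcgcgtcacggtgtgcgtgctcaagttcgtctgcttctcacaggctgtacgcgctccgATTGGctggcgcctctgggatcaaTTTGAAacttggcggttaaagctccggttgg
Cenpa: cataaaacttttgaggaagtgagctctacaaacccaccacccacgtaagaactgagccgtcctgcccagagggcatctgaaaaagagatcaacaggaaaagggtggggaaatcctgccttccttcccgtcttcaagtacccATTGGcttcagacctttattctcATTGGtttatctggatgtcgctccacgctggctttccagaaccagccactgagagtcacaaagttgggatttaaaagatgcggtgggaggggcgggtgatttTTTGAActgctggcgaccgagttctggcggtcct
The clock dip Tef (chr15:81802423-81802722, plus strand) is shown because it holds the E-box, in capitals.
Tef: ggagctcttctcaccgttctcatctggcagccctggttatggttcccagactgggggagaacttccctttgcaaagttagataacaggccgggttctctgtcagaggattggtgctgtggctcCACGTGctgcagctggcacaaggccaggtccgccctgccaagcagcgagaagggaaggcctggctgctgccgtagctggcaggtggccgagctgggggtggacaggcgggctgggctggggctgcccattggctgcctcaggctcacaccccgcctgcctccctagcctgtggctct
Of the 11 windows of replication peaks 27.3% held an E2F core, and of the 15 windows of mitosis peaks 26.7% did, beside 10.8% of the 10177 windows of measured genes and 6.70% of all 32851 windows. The CHR was in 53.3% of the mitosis windows, beside 11.7% of the windows of measured genes and 17.9% of all windows. CCAAT boxes were in 63.6% of the replication windows and 60.0% of the mitosis windows, beside 37.4% of the windows of measured genes and of all windows alike. Over all peaks, 17.9% of 106 windows held an E2F core and 27.4% a CHR, and over all dips 5.66% and 18.9% of 106 windows did. The E-box was in 2 of the 5 windows of clock dips, both of them Tef, in 9.89% of the windows of measured genes and in 7.15% of all windows. The FOXO core was in 4.72% of the windows of both peaks and dips, beside 2.65% of the windows of measured genes and 3.65% of all windows. The glucocorticoid half-site was in 12.3% of the windows of peaks and 17.9% of those of dips, beside 12.6% of the windows of measured genes and 19% of all windows. A match is a run of letters and not a shown binding site.

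**Figure D1:**
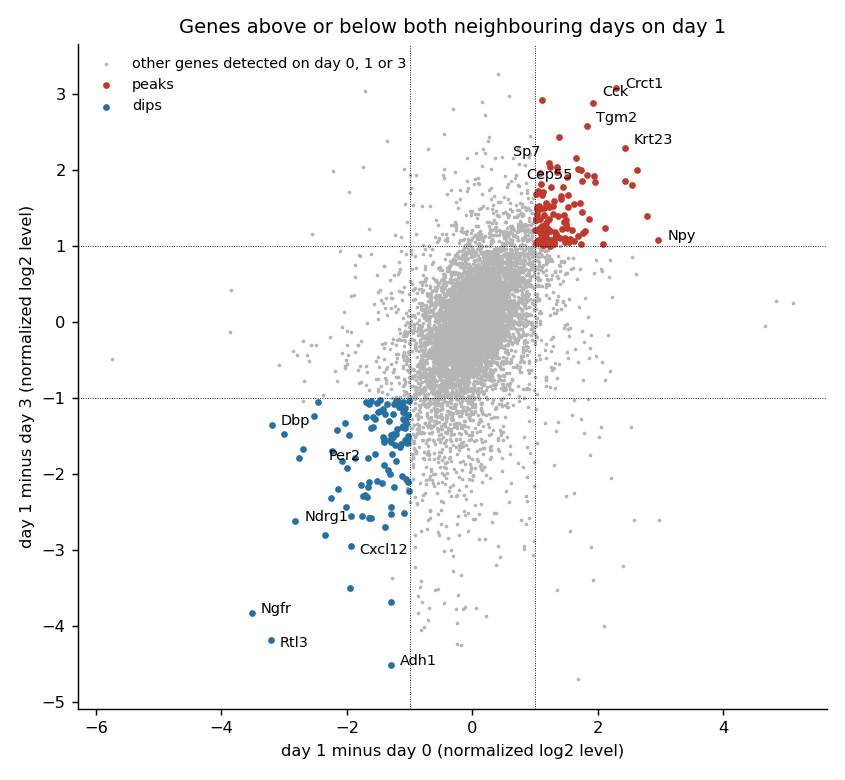
Each point is a gene detected on day 0, 1 or 3, placed by its day 1 level minus its day 0 level (horizontal, log2) and minus its day 3 level (vertical, log2), with 1 array per day. The 114 peaks (red) fill the corner above 1 on both axes and the 105 dips (blue) the corner below -1; Crct1, Cck and Tgm2 are labelled among the peaks and Ngfr, Rtl3 and Dbp among the dips.

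Genes of DNA replication were higher on day 1 than on both neighbouring days. Of 43 listed genes that could peak, 13 (30.2%) did, against 1.45% of all genes, none dipped, and 42 of the 43 lay above both neighbouring days. The list median was 0.92 above day 0 and 1.11 above day 3 on the log2 scale, while the median of all 8428 genes detected on days 0, 1 or 3 was -0.01 in both comparisons. Ccne2, a cyclin E that starts S phase, had normalized log2 levels of 6.95, 8.69 and 6.84 on days 0, 1 and 3. It was detected on day 1 only and was at least 3.24-fold higher than on day 0 and 3.51-fold higher than on day 3. The other cyclin E gene, Ccne1, stood at 9.53, 10.56 and 9.35 on the same days, but its other detected probe had a smaller step of only 0.31.

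Helicase loaders and helicase parts were among these peaks. Cdc6, which loads the MCM helicase at origins, had levels of 8.92, 10.33, 8.71, 6.81, 6.40 and 6.30 on days 0, 1, 3, 6, 10 and 14. Day 1 was thus 2.67-fold above day 0 and 3.07-fold above day 3, and all later days lay below both. Mcm5, a helicase subunit, stood at 12.22, 13.33, 11.66, 9.20, 7.83 and 7.74 over the 6 days, and Mcm10 and Cdc45, which help to activate the helicase, at 7.43, 8.64 and 7.11 and at 6.60, 8.0 and 6.88 on days 0, 1 and 3, Cdc45 without detection on day 0. Mcm4 and Mcm6 just missed the rule, with 0.97 and 0.99 as their smaller difference, that from day 3. The one listed gene that did not lie above both days was the helicase partner Gins4, at 12.65, 12.59 and 12.48.

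Genes of primer and precursor supply were also high on day 1. Prim1, the primase subunit that starts each new strand, had levels of 7.83, 9.36 and 7.68 on days 0, 1 and 3, and Pcna, the sliding clamp, 9.25, 10.35 and 9.28. Rrm2, the subunit that sets ribonucleotide reductase activity in S phase, stood at 11.50, 12.94, 11.17, 11.02, 10.24 and 10.42 over the 6 days and Tyms, thymidylate synthase, at 11.45, 12.47, 11.11, 9.47, 9.0 and 8.97. For Rrm2 the level on day 1 was 2.71-fold above day 0 and 3.43-fold above day 3. Chaf1b and Asf1b, chaperones that place histones on new DNA, and Tipin, a fork protection factor, were the remaining peaks of the list, at 2.29-, 2.04- and 2.27-fold above day 0. Tk1, thymidine kinase, is among the 3 genes just outside the threshold, with a smaller difference of 0.996.

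Mitotic genes were as high. Of 55 listed genes that could peak, 17 (30.9%) did and 53 lay above both days; the list medians were 0.93 above day 0 and 1.15 above day 3. With arrays scaled to one median 27 replication and 31 mitosis genes peaked, among 203 peaks in all, and without scaling 32 and 36 did, among 267. Cep55, which builds the midbody for the last cut between daughter cells, had levels of 8.48, 10.31, 8.38, 5.62, 4.97 and 4.98 on days 0, 1, 3, 6, 10 and 14. Its day 1 level was 3.57-fold above day 0 and 3.82-fold above day 3, the largest smaller step in the list, and it was not detected from day 6 on. Anln, the scaffold of the cleavage furrow, stood at 12.64, 13.86 and 12.34 on days 0, 1 and 3.

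Kinetochore and centromere proteins made up a further share of these peaks. Cenph had levels of 8.75, 10.27 and 8.76 on days 0, 1 and 3, Cenpk 8.68, 10.36 and 9.23 and Cenpa, the centromeric histone, 12.86, 13.96 and 12.91. Mad2l1, the checkpoint protein that holds back anaphase, stood at 9.49, 10.99 and 9.65. Day 1 was 2.82-fold above day 0 for Mad2l1 and 3.21-fold for Cenpk. Among kinases, Aurkb, which corrects kinetochore attachments, was at 9.63, 10.86 and 9.64 and Cdk1, the kinase that drives entry into mitosis, at 11.92, 12.95 and 11.52. The transcription factor Foxm1 was at 8.53, 9.61 and 8.36. The kinesins Kif4 and Kif20b, the kinases Melk and Pbk, the spindle protein Dlgap5, the phosphatase adaptor Cdca2 and the CDK subunits Cks1b and Cks2 completed the list, each between 2.02- and 2.94-fold above day 0.

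Beyond these lists, 25 further peaks fall under DNA repair at the fork or control of mitosis, a grouping made after their values were seen. The 9 repair and fork genes, Fignl1, Blm, Rad54l, Ube2t, Clspn, Chtf18, Parpbp, Dscc1 and Fanci, included 7 detected on days 0, 1 and 3, with smaller steps of 2.16- to 2.73-fold. Dscc1 and Fanci were detected on day 1 only of these days, with smaller steps of at least 1.91- and 1.47-fold. Blm, a helicase that resolves recombination intermediates, stood at 10.05, 11.42 and 10.02 on days 0, 1 and 3, and Clspn, an adaptor of the replication checkpoint, at 10.51, 11.64 and 9.92. The 16 genes of spindle and mitotic control, among them Trip13, Plk4, Haus3, Haus6, Spdl1, Kntc1, Sgo1, Spag5, Haspin, Bora, Mastl and Cdc25a, included 14 detected on these days, with smaller steps of 2.05- to 2.50-fold. Trip13 and Haus3 were detected on day 1 only, with at least 2.43- and 1.42-fold. Plk4, the kinase that starts centriole duplication, stood at 9.50, 10.78 and 9.36. On day 14, 22 of these 25 genes were at least 2-fold below day 0, against 14.9% of all genes detected on day 1. The 25 were picked from the peaks, so the share of such genes that peaked is not known. Some of them, such as Dscc1, Fanci, Kntc1 and Depdc1a, were not detected on day 14.

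Core histones did not share one pattern. Of 29 that could peak, H2ac6, H2ac12 and H2ac15 peaked (10.3%, against 1.45% of all genes). Of 31 that could dip, H2ac18 and H2ac19 dipped (6.45%, against 1.38%). H2ac12 stood at 13.27, 14.79, 13.55, 11.01, 11.39 and 10.59 over the 6 days and H2ac19 at 12.03, 10.87, 11.98, 12.75, 13.28 and 13.27, so among the 6 samples the former was highest and the latter lowest on day 1. These genes have near-identical copies, so their probes may share signal, and H2ac6 reached 91.2% of the highest signal on an array, which leaves its size unresolved.

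**Figure D2:**
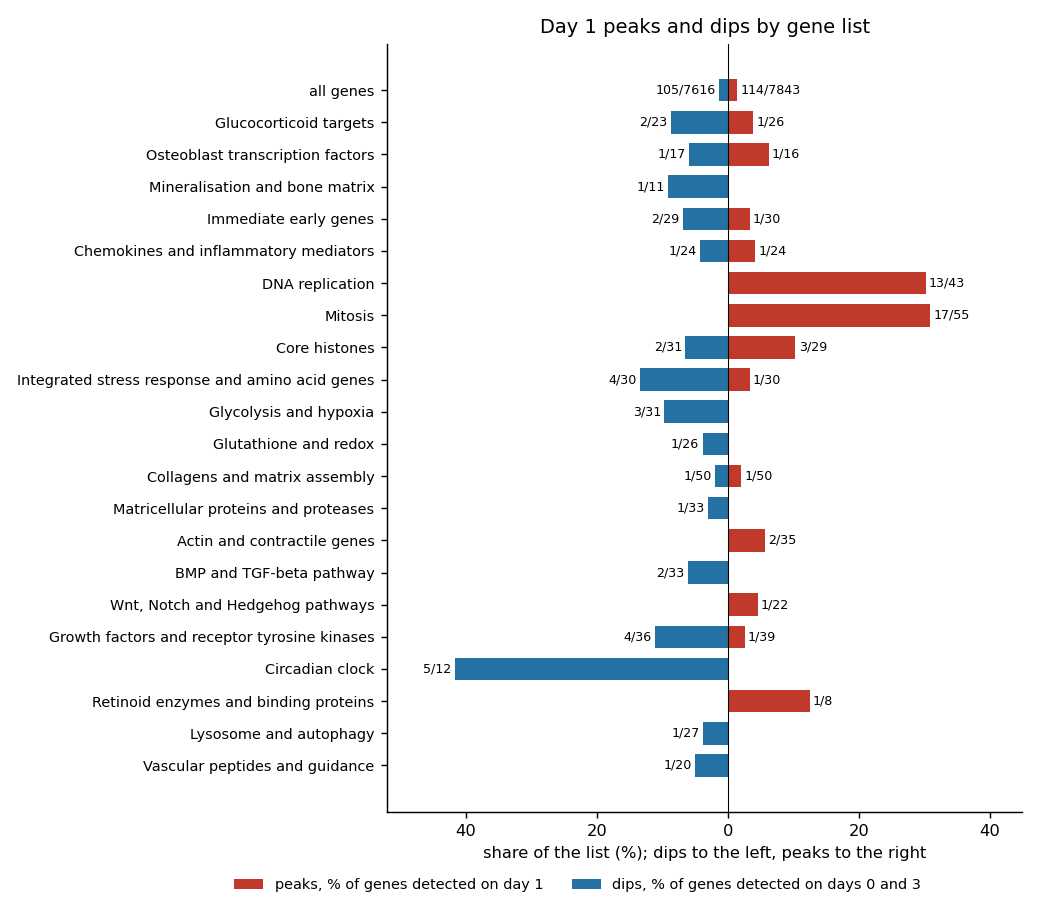
Share of each gene list with at least 1 member that peaked (red, to the right, % of listed genes detected on day 1) or dipped (blue, to the left, % of listed genes detected on days 0 and 3), with the counts beside the bars and all genes at the top. DNA replication (13 of 43) and mitosis (17 of 55) hold the longest red bars and the circadian clock (5 of 12) the longest blue bar.

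Of 16 listed osteoblast transcription factors that could peak, 1 did (6.25%, against 1.45% of all genes). Of 17 that could dip, 1 did (5.88%, against 1.38%), so each share rests on 1 gene. The peak, Sp7, which encodes osterix, had normalized log2 levels of 10.38, 11.60, 9.51, 7.99, 6.35 and 7.22 on days 0, 1, 3, 6, 10 and 14, so that day 1 was 2.32-fold above day 0 and 4.25-fold above day 3. The highest level of the course was on day 1 and the level on day 10 was below detection. Another probe of Sp7 gave 8.06, 9.10 and 7.47 on days 0, 1 and 3. Dlx2, a homeobox factor of the branchial arches, stood at 9.56, 11.25, 9.24, 9.06, 9.48 and 9.60, 3.22-fold above day 0 on day 1, but its other detected probe had a smaller step of only 0.43. Dlx2 is not in the osteoblast list, of which only Sp7 peaked. The listed Fosl1 came close, with day 1 0.98 above day 0 and 1.38 above day 3. Alpl, the alkaline phosphatase used as an early marker of this lineage, stood at 9.17, 9.64 and 9.58 on days 0, 1 and 3, and Sox11, a factor of progenitor cells, lay below day 0 on day 1, at 11.67, 11.23 and 8.75.

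Secreted signals were among the largest peaks. Cck, the peptide hormone cholecystokinin, had levels of 11.04, 12.96, 10.08, 7.44, 5.43 and 5.83 over the 6 days. On day 1 it was 3.78-fold above day 0 and 7.36-fold above day 3, and from day 6 on it lay below all earlier days. Wnt2, a Wnt ligand, stood at 7.67, 10.10, 8.24, 9.92, 9.01 and 10.16, so its day 1 level was reached again on day 14. Npy, neuropeptide Y, stood at 5.24, 8.20, 7.12, 9.37, 7.98 and 10.15 and was not detected on day 0, and its later levels were again above day 1 on days 6 and 14. Fgf2, a growth factor for stromal cells, stood at 7.96, 9.04 and 7.08 on days 0, 1 and 3. Ptgs2, the inducible enzyme of prostaglandin synthesis, stood at 8.55, 9.90, 7.86, 5.61, 5.21 and 5.17, 2.56-fold above day 0 on day 1 and without detection from day 6 on.

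Several peaks belong to products known from epithelia or the nervous system. Crct1, a gene named for its cysteine-rich C terminus, lies in the epidermal differentiation complex. It had the largest smaller step of all peaks, with levels of 7.47, 9.76, 6.69, 5.33, 5.18 and 5.52. Day 1 was 4.91-fold above day 0 and at least 7.37-fold above day 3, where it was not detected. Krt23, a keratin, stood at 5.48, 7.91, 5.61, 8.46, 7.72 and 7.94 and was not detected on days 0 and 3, so that only at least 1.88-fold and 2.04-fold are resolved. Nrcam, a neuronal adhesion molecule, stood at 6.60, 9.23 and 7.22 on days 0, 1 and 3, and was not detected on day 0. Defb48, a defensin, Klk8, a serine protease, and Rab3b, a GTPase of secretory vesicles, stood at 6.60, 8.56 and 6.72, at 7.74, 9.39 and 7.23 and at 5.45, 7.16 and 5.59. Defb48 and Rab3b were not detected on days 0 and 3, so their smaller steps are resolved only as at least 2.96- and 1.12-fold.

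Adhesion and contractile genes formed a smaller set. Itga5, the fibronectin receptor subunit, was at 9.94, 10.96 and 9.27 on days 0, 1 and 3 and Itga6, a laminin receptor subunit, at 6.08, 7.70 and 6.14, the latter detected on day 1 only. For Itga6 the smaller step is resolved only as at least 1.63-fold. Myocd, the coactivator of smooth muscle genes, stood at 6.71, 9.50, 8.09, 10.57, 9.88 and 10.66, without detection on day 0, and so passed its day 1 level again from day 6. Col7a1, the collagen of anchoring fibrils, was at 9.24, 10.33 and 9.29. Tgm2, tissue transglutaminase, which cross-links matrix proteins and is a known glucocorticoid and retinoid target, was one of the brightest peaks with 11.61, 13.43, 10.85, 12.84, 12.14 and 12.70 over the 6 days. Day 1 was 3.53-fold above day 0 and 6.01-fold above day 3. Of 26 listed glucocorticoid targets that could peak, Tgm2 alone did (3.85%, against 1.45% of all genes). Fkbp5, a chaperone of the receptor, did not peak and stood at 9.34, 11.46 and 12.22 on days 0, 1 and 3 and at 13.13 on day 6.

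The other listed and largest peaks had varied roles. Irf5, an interferon regulatory factor, was at 7.32, 9.26 and 7.34 on days 0, 1 and 3, and Hmga2, a chromatin protein of proliferating embryonic and mesenchymal cells, at 5.73, 8.27 and 6.46, detected on day 1 only. Rarb, a retinoic acid receptor, was at 6.52, 7.94 and 6.28, and Sik1, a salt-inducible kinase, at 5.72, 7.27 and 6.21, both detected on day 1 only of these days. For Rarb and Sik1 the smaller steps are resolved only as at least 1.92- and 1.21-fold. Shmt1, which makes one-carbon units, was at 7.53, 9.03 and 7.74, and Prpf31, a splicing factor, at 6.71, 8.22 and 6.31, the latter detected on day 1 only of these days. The remaining peaks outside the lists include Foxs1, Ahrr, Atoh8, Mbd1, Ndc1, Tmpo, Cse1l, Nsd2, Terf1, Hipk2, Prkg2, Gcnt2, P2ry2, Igf2bp1, Mical2, Hip1r, Cobl, Abracl, Diaph3 and Iqgap2. The largest smaller step among them was 2.57-fold, in Mbd1, and the lowest of those detected on days 0, 1 and 3 was 2.04-fold. Another detected probe of Mbd1 had a smaller step of only 0.50 on the log2 scale, and further probes of Tmpo had 0.33 and 0.91. Ahrr, Terf1, Igf2bp1 and Cobl were not detected on at least 1 neighbouring day.

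**Figure D3:**
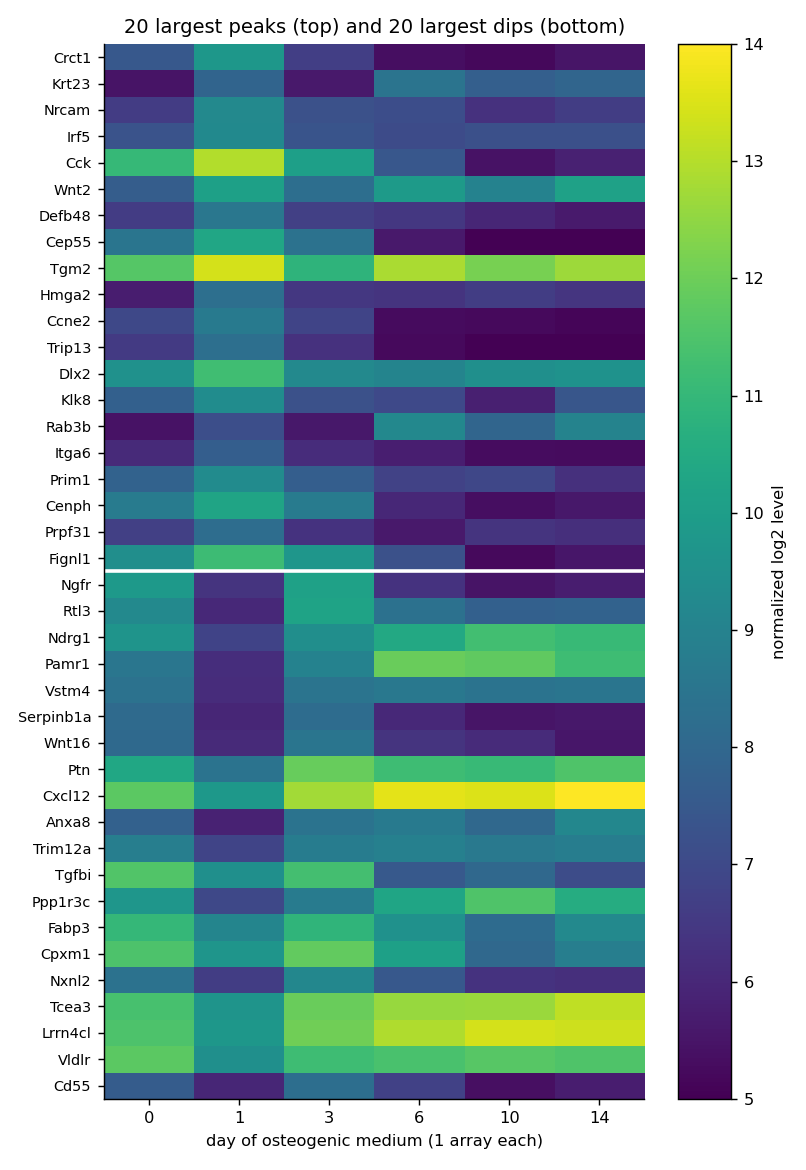
Normalized log2 level (colour) of the 20 peaks (top) and 20 dips (bottom) with the largest smaller step, on the 6 arrays. In the top block the column of day 1 is brighter than days 0 and 3 and in the bottom block darker; Krt23, Wnt2, Tgm2 and Rab3b are bright again on later days, whereas Cck, Cep55 and Crct1 are dark.

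Among the dips the circadian clock held the largest share of any list. Of 12 listed genes that could dip, 5 (41.7%) did, against 1.38% of all genes, and the list median was 1.18 below day 0 and 0.52 below day 3. With arrays scaled to one median 4 genes of the list dipped, and without scaling 3. Dbp, an output factor of the clock, had levels of 11.82, 8.63, 9.98, 10.40, 11.23 and 11.40 over the 6 days and was 9.14-fold lower on day 1 than on day 0 and 2.55-fold lower than on day 3. Tef, its relative, stood at 12.55, 10.93, 11.97, 12.65, 13.33 and 13.25. The repressors Per2 and Per3 stood at 9.09, 7.55, 9.29, 10.67, 11.41 and 11.08 and at 9.34, 7.31, 8.63, 9.34, 9.91 and 10.01, and Rora, a nuclear receptor that activates Bmal1, at 9.33, 8.15, 9.18, 9.91, 10.42 and 10.44. On days 10 and 14 Per2, Per3, Rora and Tef stood above day 0, and Dbp below it.

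Other clock genes did not dip. Arntl, the gene of BMAL1, was at 9.43, 10.01 and 9.68 on days 0, 1 and 3, and Clock at 10.93, 11.36 and 10.67, so both were highest on day 1 of these days. Per1, a repressor that glucocorticoids are known to induce, was at 7.50, 8.27 and 8.79, above day 0 on day 1. Cry2, a further repressor, was at 9.18, 7.96 and 8.94 and missed the rule by its difference of 0.99 from day 3. Nr1d1 and Nr1d2, nuclear receptors that repress Bmal1, stood at 9.43, 9.03 and 8.12 and at 9.21, 9.48 and 9.52, so for both day 1 lay between its neighbours. The hour of the day at which cells were taken is not given in the sources used here, and its part in these values was not tested.

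The chemokine and growth factor lists were mixed. Of 27 detected chemokines and inflammatory mediators, 10 lay above both days and 8 below. Of 24 that could dip only Cxcl12 did (4.17%, against 1.38% of all genes). Of 40 detected growth factors and receptors, 12 lay above both days and 17 below, and of 36 that could dip Ptn, Igfbp5, Igfbp4 and Fgfr1 did (11.1%, against 1.38% of all genes). Cxcl12, the stromal chemokine that retains blood stem cells in their niche, had levels of 11.72, 9.79, 12.74, 13.64, 13.53 and 14.27, 3.83-fold lower on day 1 than on day 0 and 7.73-fold lower than on day 3. Ptn, pleiotrophin, a heparin-binding growth factor, stood at 10.38, 8.42, 11.92, 11.19, 11.07 and 11.53, 3.88- and 11.3-fold lower. Both were detected on all 6 arrays and both ended above day 0. Igfbp5 and Igfbp4, which bind insulin-like growth factors, stood at 12.52, 10.36 and 11.78 and at 13.64, 12.55 and 13.73 on days 0, 1 and 3. Fgfr1, a receptor of Fgf2, was not detected on day 1 and its dip is not resolved, since with the day 1 level at the detection limit it was 1.33-fold below day 0 but not below day 3.

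Surface receptors gave the deepest dip. Ngfr, the low-affinity neurotrophin receptor that marks some mesenchymal progenitors, had levels of 9.85, 6.34, 10.17, 6.30, 5.48 and 5.71. It was detected on days 0 and 3 only, and day 1 was at least 7.52-fold below day 0 and at least 9.35-fold below day 3. Gfra1, a GDNF receptor, and Cd55, a brake on complement, were likewise detected on days 0 and 3 only. Their smaller steps are resolved only as at least 1.45- and 1.62-fold. Tek, the angiopoietin receptor and one of the endothelial markers, stood at 8.44, 7.19 and 9.36, while the summed linear level of the 4 measured endothelial markers was 1558, 1279 and 2143 on these days; its part in the result was not tested. Rtl3, a retrotransposon-derived gene, had levels of 9.24, 6.02, 10.20, 8.36, 7.76 and 7.82 over the 6 days and was not detected on day 1, which was at least 4.90-fold below day 0 and 9.59-fold below day 3. Vstm4 stood at 8.38, 6.13 and 8.45 on days 0, 1 and 3, without detection on day 1, and Lrrn4cl at 11.47, 9.77 and 12.04.

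Of 33 listed BMP and TGF-beta genes that could dip, Tgfbi and Chrd did (6.06%, against 1.38% of all genes). Dips among matrix and TGF-beta family genes were mixed in their later course. Tgfbi, a matrix protein induced by TGF-beta, stood at 11.56, 9.48, 11.31, 7.51, 8.04 and 7.09, and Chrd, the BMP antagonist chordin, at 9.87, 8.56, 10.56, 11.56, 11.89 and 11.99. After day 3 the first lay below day 1 and the second above all earlier days. Ogn, osteoglycin, stood at 7.94, 6.29, 8.87, 9.34, 9.79 and 10.05 and was not detected on day 1, with a smaller step of at least 1.99-fold. Pamr1, a secreted protease-like protein, was at 8.53, 6.18, 8.98, 11.94, 11.82 and 11.20, without detection on day 1, and Cpxm1, a carboxypeptidase-like matrix protein, at 11.48, 9.70, 11.85, 10.13, 8.04 and 8.85. Wnt16, a Wnt ligand studied in bone, was detected on days 0 and 3 only, at 8.08 and 8.49. Zfp521, a repressor of early osteoblast factors, stood at 12.40, 11.35 and 12.68, and Sema3b, a semaphorin, had a smaller step of 1.01. Hyal1, a hyaluronidase, was not detected on day 1, and its smaller step at the detection limit was 0.76.

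Genes of amino acid stress, low oxygen and metabolism were also among the dips. Of 31 listed glycolysis and hypoxia genes that could dip, Ndrg1, Aldoc and Ddit4 did (9.68%, against 1.38% of all genes). Of 30 listed genes of the integrated stress response that could dip, Aldh1l2, Slc6a9, Vldlr and Ddit4 dipped (13.3%, against 1.38% of all genes). The list median was 1.45 below day 0 but 0.13 below day 3, so the list stood lower on day 1 than on day 0 and close to day 3. Chac1, which breaks down glutathione, shows this course with 12.46, 8.60 and 8.73 on days 0, 1 and 3. Aldh1l2, a mitochondrial folate enzyme, stood at 10.76, 7.76 and 9.24, Slc6a9, a glycine transporter, at 12.18, 9.65 and 10.89, and Vldlr, a lipoprotein receptor, at 11.73, 9.49 and 11.19. Ndrg1, a gene induced by low oxygen, had levels of 9.64, 6.83, 9.44, 10.42, 11.26 and 11.07 and was at least 6.51-fold lower on day 1 than on day 0 and 5.66-fold lower than on day 3. Ddit4, an inhibitor of mTORC1 induced by both stress and glucocorticoids, stood at 10.95, 9.30 and 10.38, and Aldoc, an aldolase, was not detected on day 1.

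Smaller sets completed the dips. The enzyme that regenerates active glucocorticoid, Hsd11b1, stood at 9.31, 8.08, 9.70, 12.01, 13.17 and 12.17. Of 23 listed glucocorticoid targets that could dip, Hsd11b1 and Ddit4 did (8.70%, against 1.38% of all genes). The metabolic genes Ppp1r3c, which targets a phosphatase to glycogen, and Fabp3, a fatty acid carrier, stood at 9.73, 6.97 and 8.76 and at 10.98, 9.10 and 10.89 on days 0, 1 and 3. The 5 genes grouped as growth restraint after their values were seen were Sesn3, Pik3ip1, Trp53inp1, Rerg and Rassf4. In the 3 of them detected on days 0, 1 and 3 the smaller steps were 2.46- to 2.66-fold, with Sesn3, a stress-induced brake on mTORC1, at 11.51, 9.93 and 11.32. Pik3ip1 and Rassf4 were not detected on day 1, with smaller steps of at least 2.26- and 1.05-fold. Klf2 and Nr4a1, immediate early factors, were at 12.11, 10.99 and 12.11 and at 7.08, 6.00 and 7.39, the latter below detection on day 1. For Nr4a1 the smaller step is resolved only as at least 1.10-fold. Ctsa, a lysosomal carboxypeptidase, stood at 8.77, 7.11, 9.27, 10.42, 10.74 and 10.92, and Gstt1, a glutathione transferase, at 9.59, 8.54 and 10.60. Another detected probe of Ctsa had a smaller step of only 0.51 on the log2 scale. Apod, a lipid carrier, was 2.45-fold lower on day 1 than on day 0 and stood far above it from day 3, at 8.46, 7.17, 10.85, 14.98, 15.84 and 15.67 over the 6 days. Adh1, an alcohol dehydrogenase, was at 7.21, 5.92 and 10.43 on days 0, 1 and 3 and at 13.14 on day 14, but it was not detected on day 1, and its smaller step at the detection limit was 0.27 on the log2 scale. Other dips among the 20 largest were Serpinb1a, Anxa8, Trim12a, Nxnl2 and Tcea3, of which only Tcea3 was detected on day 1. For Anxa8 the smaller step is resolved only as at least 1.80-fold. Amy2a5, Ugt1a6a, Ugt1a7c and Trim12a belong to families of near-identical copies and are uncertain for that reason.

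Some lists lay on one side of day 1 without crossing the 2-fold line. Of 40 detected ribosome biogenesis genes, 36 lay above both days and 0 peaked, with medians of 0.32 above day 0 and 0.69 above day 3; Ddx21 and Ncl, nucleolar proteins, came nearest with smaller steps of 0.90 and 0.89. Of 27 interferon and antigen presentation genes, 21 lay below both days, with medians of 0.33 below day 0 and 1.93 below day 3. Only 17 of the 27 were detected on day 1 and 19 on both days 0 and 3, so part of these values lie below detection. Gbp3 and Igtp came nearest to a dip with 0.82 and 0.80. Igtp was not detected on day 1, and its smaller step at the detection limit was 0.45. Of 27 lysosomal genes, 21 lay below both days, with Ctsa as the single dip (3.70%, against 1.38% of all genes). Among all genes 32.4% lay above and 34.2% below both days. The median of all genes was 0.20 above day 0 with arrays scaled to one median and 0.25 above it without scaling, and then 39 and 40 ribosome biogenesis genes lay above both days, 19 and 18 interferon genes below, and 17 and 17 lysosomal genes below.

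The remaining lists held no peak or dip. Lbp and C2 of the complement and acute phase list had downward steps of 0.92 and 0.75, and Plin2 and Pnpla2 of the adipocyte list 0.75 and 0.65. Lpin1 and Tm7sf2 of the sterol list had downward steps of 0.74 and 0.46, and Cdkn2a of the cell cycle inhibitor list 0.66, while Cdkn2d of the same list had an upward one of 0.59. Hsp90aa1 and Hspd1, chaperones, had upward steps of 0.71 and 0.62. Of the tRNA synthetases, Sars had a downward step of 0.27 and Kars an upward one of 0.19. Of the reference genes B2m had a downward step of 0.48 and Tbp an upward one of 0.37. In the Sox family, Sox9, the cartilage factor, came close to a dip with 13.39, 12.44 and 13.43 on days 0, 1 and 3, and Sox12, a related factor, stood at 12.17, 11.90 and 11.88.

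Levels on days 6, 10 and 14 did not enter the comparisons of the rule. Their arrays did enter the joint normalization and, through the mean over the 6 arrays, the choice of probe for each gene. The peaks had median levels of 8.78, 10.11, 8.54, 7.37, 6.51 and 6.59 over the 6 days, and 79 of 114 (69.3%) lay below both day 0 and day 3 on all 3 later days, against 33.6% of all genes detected on day 1. On day 14, 70 peaks (61.4%) were at least 2-fold below day 0, against 14.9% of those genes. All 13 replication peaks and all 17 mitosis peaks lay below both days on every later day. Comparisons with day 0 or day 3 share an array with the rule. The difference between days 14 and 6 shares no array with the comparisons of the rule. Between them, 91 of the 114 peaks (79.8%) were lower on day 14 than on day 6, against 51.4% of the genes detected on day 1. By at least 2-fold, 19 (16.7%) were lower, against 2.21%. On day 14, 58 of the 114 peaks were not detected, against 405 of the 7843 genes detected on day 1. Part of the later levels of peaks thus lie below detection, where the size of a fall is not resolved. Only 9 peaks reached their day 1 level again: Krt23, Wnt2, Rab3b, Myocd, Prkg2, Npy, Sik1, H2-M9 and Wdr92.

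The dips had median levels of 9.04, 7.29, 9.24, 9.82, 9.77 and 9.86, and 54 of 105 (51.4%) lay above both day 0 and day 3 on all later days, against 26.6% of the genes detected on days 0 and 3. On day 14, 46 dips (43.8%) were at least 2-fold above day 0 and 24 (22.9%) at least 2-fold below it, against 11.6% and 14.8% of those genes. Between days 6 and 14 the dips were divided, with 63 (60.0%) higher and 42 lower on day 14, beside 48.6% higher among those genes. Day 3 was within 0.5 log2 units of day 0 for 84 of 114 peaks (73.7%), beside 67.5% of the genes detected on day 1, and for 64 of 105 dips (61.0%), beside 68.7% of the genes detected on days 0 and 3. The share of peaks was thus a little above that background and the share of dips below it.

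**Figure D4:**
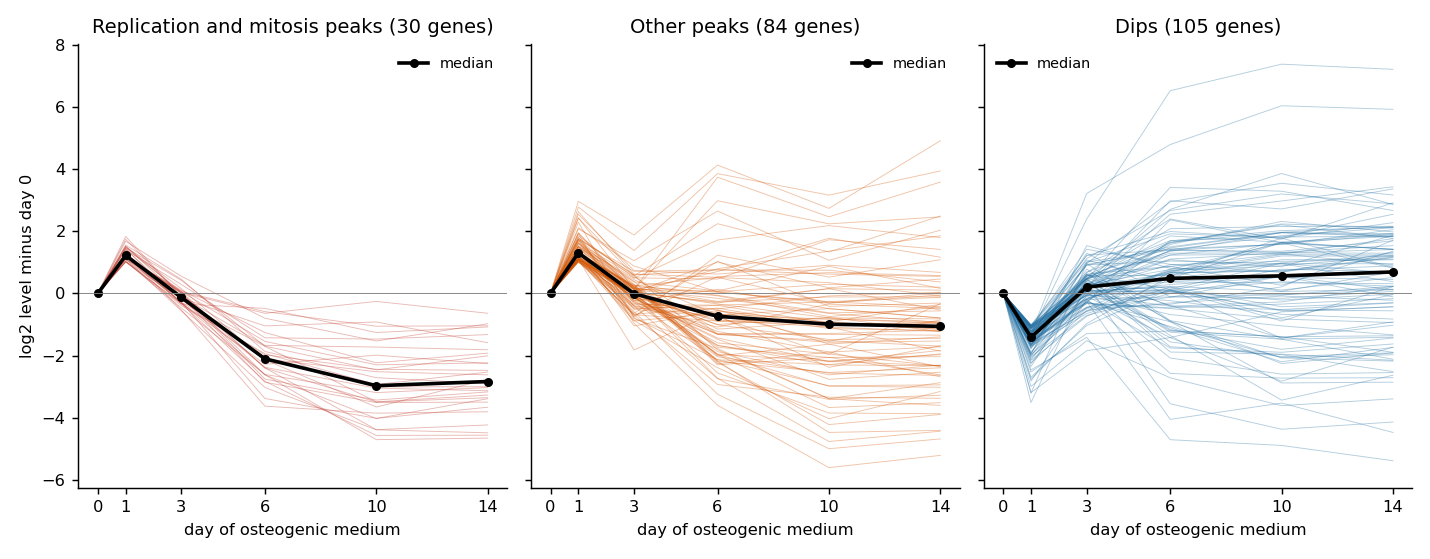
Log2 level minus the day 0 level of each member (thin lines) and their median (black) against the day of osteogenic medium, with 1 array per day, for the 30 replication and mitosis peaks, the 84 other peaks and the 105 dips. All lines of the first panel lie below 0 on days 6 to 14, the second panel spreads to both sides, and the median of the third lies above 0 from day 3.

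The same rule was applied to the other inner days. Day 3 had 68 peaks (0.84% of the genes that could) and 47 dips (0.632%) against days 1 and 6. Day 6 had 45 peaks (0.559%) and 8 dips (0.106%), and day 10 had 7 peaks (0.0882%) and 44 dips (0.557%). Day 1 thus held more of both than each other inner day, but the gaps between samples differ in length and neighbouring counts share arrays. Of the 105 dips of day 1, 21 were peaks of day 3, and of the 114 peaks, 11 were dips of day 3, counts that share the arrays of days 1 and 3 with the rule.

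Without repeated arrays, other probes of the same genes are the nearest check. Of the peaks, 22 genes had 24 further detected probes, of which 22 lay on the same side and 10 met the rule themselves, with a median smaller step of 0.90. The exceptions were Sgo1 and Wdr92, whose other probes gave -0.17 and -0.18. Of the dips, 17 genes had 25 further detected probes, all 25 on the same side, 13 meeting the rule, with a median of 1.04. Over 1784 genes with more than 1 detected probe the SD between probes of a gene was 0.28 for the difference between day 1 and either neighbour. That SD covers probe and hybridisation error on these arrays and not the spread between cultures. The authors' deposited table of folds, scaled in a way that is not given, comes from the same arrays and probes that chose the members. Its direction is therefore no independent check. All 114 peaks and all 105 dips had the same direction against both days there, and 59 and 47 of them reached 2-fold.

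**Figure D5:**
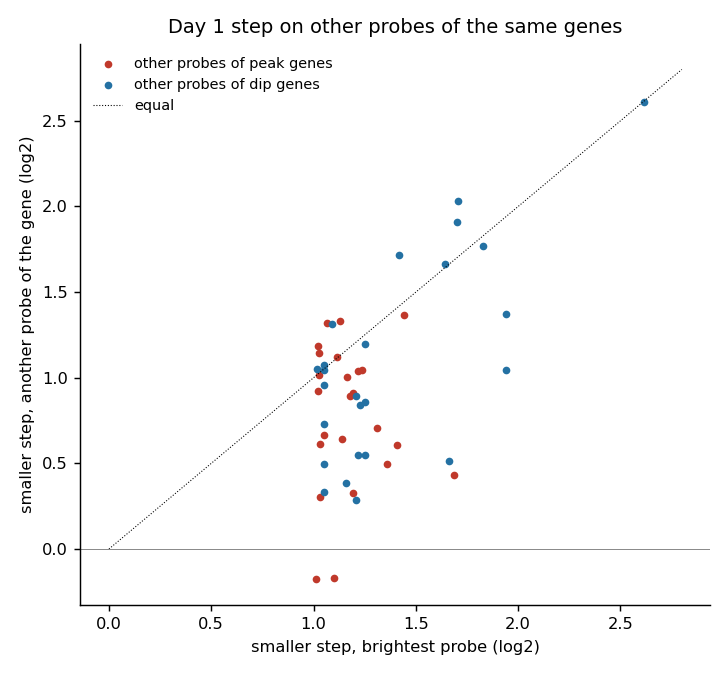
Smaller step of the probe used for a gene (horizontal, log2) against that of each further detected probe of the gene (vertical, log2), for peaks (red) and dips (blue, counted downwards as positive); the dotted line marks equal values. Of 49 further probes 47 lie above 0; the other 2, of Sgo1 and Wdr92, lie below.

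Members lay close to the threshold on both sides. The peaks just inside it were Wdr92, H2ac6 and Dctpp1, with smaller steps of 1.013, 1.007 and 1.003, and the genes just outside were Exosc6, Eri2 and Tk1, with 0.999, 0.998 and 0.996. The dips just inside were Il17rd, Sema3b and Vat1, with 1.017, 1.014 and 1.011, and those just outside Mmab, Thnsl2 and Renbp, with 0.999, 0.998 and 0.994. The probe SD is larger than these gaps.

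Detection sets how firmly a size can be stated. Of the peaks, 87 were detected on days 0, 1 and 3 alike, 17 on day 1 only of these days, and 102 kept a 2-fold step when undetected levels were raised to the lowest level of a detected probe on that array. Of the dips, 59 were detected on all 3 days, 46 were not detected on day 1, and 73 kept a 2-fold step by that measure. The arrays had 12891 to 13980 detected probes, and the median signal before normalization was 141 on day 1, against 127 to 131 on the other days, which scaling removes. With arrays scaled to one median, 203 genes peaked and 83 dipped, and without scaling 267 and 66. The balance of peaks and dips thus depends on the scaling. The median of all genes on day 1 was then 0.20 and 0.25 above day 0, and 0.05 and 0.16 above day 3. A shift in that direction favours peaks, so that 113 of the 114 peaks were called in either case is no check on them. Of the 105 dips, which the shift works against, 83 and 66 were still called. Of the stromal markers that define the labelled cell type, 10 of 11 measured were detected on each of days 0, 1 and 3, and their summed linear level was 141020, 130001 and 127092. Of 14 listed leukocyte markers only 3 were measured, of which 1 was detected on each day, so leukocytes were hardly covered. Of 4 measured endothelial markers 3 were detected on each of these days, and of 2 mesothelial and epithelial markers 1 was. Of 5 measured adipocyte markers 1, 2 and 4 were detected on these days, and their summed level was 362, 455 and 1613. Pericyte and smooth muscle markers were bright as well: of 4 measured, 4, 4 and 2 were detected, with a summed level of 61794, 54499 and 51852. The stromal markers were thus not the only bright set.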

How the data were processed

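RNA of 6 samples was measured on Illumina bead arrays. The authors deposited linear signal intensities, not normalized between arrays, with a detection p-value per probe and array, per the file headers. A further deposited table holds another unit, a signed fold over the control array, with a fall written as minus the inverse ratio. How the scanner signals were background subtracted, and how that table was scaled, is not given in the sources used here; signal columns C and T1 to T5 were assigned to days 0 to 14 through the deposited series matrix, whose 17785 compared intensity values were equal on each array within a relative tolerance of 1e-05.

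Of 46649 entries, 6 without and 30 with a repeated identifier were left out. Signals were background corrected with nec of limma 3.58.1 (R 4.3.3, offset 16), quantile normalized over the 6 arrays and put on the log2 scale. Of the probes, 13807 had a single gene symbol, 3 several and the rest none, and 13790 were found in the reference gene table, where 0 symbols changed. Each gene took the probe of highest mean over the arrays. The smaller step is the lesser of the day 1 differences from days 0 and 3. A fold is written as at least N-fold where a level below detection was raised to the lowest level of a detected probe on that array, which lay between 6.64 and 7.00. Signal over background and 1 array per day limit the precision. No p-value, SD between samples or set test is given.

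The rule was run on simulated arrays only as a check of the code. The planted changes lay away from the threshold and in brighter probes, so members near the threshold or the detection limit were not covered. The members and the 31 gene lists (849 of 1142 symbols measured) were chosen with earlier results of these data known. Named are the 20 largest peaks and dips, list members among the peaks and dips, the 3 genes on each side of each threshold, Sox11, Sp7, Alpl, Fkbp5 and Chac1, and the 2 nearest genes of lists without a member. Further names and the role groups outside the lists were chosen after their values were seen. Promoter windows came from RefSeq. Alternatives in scaling, background, offset, detection, probe choice, threshold and neighbouring day were tried.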

Additional observations from a re-analysis of the deposited data

How the results depend on the processing

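The counts of 114 peaks and 105 dips stayed within 1.5 times under an offset of 50, joint normalization of days 0, 1 and 3 alone, detection p-values under 0.05, the mean of the detected probes, any detected probe, leaving out bright genes, day 6 in place of day 3, and, chosen after seeing the data, raising undetected levels to the detection limit. A like count need not hold the same genes. With day 6 in place of day 3, 162 genes peaked and 134 dipped, of which 99 and 80 were among the 114 peaks and 105 dips. The counts moved further under other settings. Median scaling gave 203 peaks, and no scaling gave 267 peaks and 66 dips. Without background correction 52 peaks and 43 dips were left, and 59 and 47 by the folds the authors deposited. Requiring detection on all 3 days left 59 dips. Thresholds of 1.5-fold gave 500 and 441, and of 3-fold 14 and 26. The single reversed value was Fgfr1, whose dip of 1.24 became -0.0394 at the detection limit, because its day 1 level was not detected. The steps of the 219 genes moved by more than the SD between probes in 102 cases without background correction, 97 by the authors' deposited table of folds, 47 at the detection limit, 34 with an offset of 50, 30 without scaling, 24 with the mean of the detected probes and 4 with median scaling. No paired analysis was possible because each day has 1 array, and for the same reason no replicate could be left out. Undetected day 1 levels limit the size of 46 dips.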

Other observations

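Probes without a single gene name were not used above. Of 2585 such probes detected on day 1, 79 (3.06%) met the rule for a peak, and of 2307 detected on days 0 and 3, 22 (0.954%) met the rule for a dip. The largest peak among them, the probe ILMN_1253874, had normalized log2 levels of 5.21, 9.87, 5.67, 5.57, 5.29 and 5.13 on days 0, 1, 3, 6, 10 and 14, so it stood apart on day 1 alone. The probe ILMN_2599692 had levels of 6.57, 9.25 and 5.42 on days 0, 1 and 3. The deepest dip, ILMN_1256343, had levels of 9.63, 6.61 and 10.42 on these days, and 10.04, 9.95 and 9.07 later. Its smaller step was below that of Ngfr, the deepest named dip, at 3.02 against 3.51.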
